A study of Mus musculus with 9 samples.

Results

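Of 54532 genes listed for 4T1 cells, 10 of those that drive or restrain the passage from G1 into S phase are described here. They were chosen by symbol for their role in the pathway, with no threshold on their values. Earlier results of these data were known when these members and the other gene lists below were chosen. The members are the D-type cyclins Ccnd1, Ccnd2 and Ccnd3, the E-type cyclins Ccne1 and Ccne2 and the kinases Cdk4 and Cdk6. The others are the inhibitor Cdkn1b, the pocket protein gene Rb1 and the transcription factor gene E2f1. 4T1 is a line of mouse mammary carcinoma cells that stands in for triple-negative breast tumours. Cells, kept in high-glucose medium with serum, received Au/Cu-TCPP(Fe)-PEG (the group Au_TCPP), Cu-TCPP(Fe)-PEG (Cu_TCPP) or medium alone (Control) for 24 h, and polyadenylated RNA was sequenced from 3 libraries of each group. The series title describes the materials as nanoenzymes that consume glutathione and act like a glucose oxidase, the Au_TCPP label naming both activities and the Cu_TCPP label the first, and the doses are not given in the sources used here.

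D-type cyclins bind Cdk4 and Cdk6 when growth signals arrive, and the active kinases phosphorylate the retinoblastoma protein. Phosphorylation frees E2F factors, which switch on the E-type cyclins and the genes of DNA replication, and cyclin E with Cdk2 completes the step. Cdkn1b encodes p27, which binds and inhibits cyclin E-Cdk2 and also associates with cyclin D complexes. Cyclin D1 is often overexpressed in breast carcinoma, where drugs against CDK4 and CDK6 are in use.

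Promoters of 4 members, an inhibitor, an E-type cyclin, a kinase and a D-type cyclin, are shown as examples of different kinds of member. The sequences are the 250 bases before the start site in RefSeq on build GRCm38.p6, taken from windows that run from 250 bases before to 50 bases after each start, and capitals mark one motif per gene. The capitals are the CCAAT box in Cdkn1b, the GC box GGGCGG in Ccne1 and Ccnd3, and the E-box CACGTG in Cdk4, each searched on both strands. The motif marked was picked per gene from those searched, so the shares of windows given below are of picked motifs.
Cdkn1b, chr6:134920151-134920400, plus strand: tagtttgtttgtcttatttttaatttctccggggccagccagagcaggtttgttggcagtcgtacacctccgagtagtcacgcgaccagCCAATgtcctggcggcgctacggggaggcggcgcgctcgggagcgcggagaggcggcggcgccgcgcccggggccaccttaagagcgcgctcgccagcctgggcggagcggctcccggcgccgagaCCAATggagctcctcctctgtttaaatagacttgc
Ccne1, chr7:38107491-38107740, minus strand: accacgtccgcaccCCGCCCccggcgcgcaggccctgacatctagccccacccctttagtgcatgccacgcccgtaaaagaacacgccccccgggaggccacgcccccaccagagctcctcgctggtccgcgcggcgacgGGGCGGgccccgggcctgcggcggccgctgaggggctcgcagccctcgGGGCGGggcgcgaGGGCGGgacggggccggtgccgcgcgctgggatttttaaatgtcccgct
Cdk4, chr10:127063285-127063534, plus strand: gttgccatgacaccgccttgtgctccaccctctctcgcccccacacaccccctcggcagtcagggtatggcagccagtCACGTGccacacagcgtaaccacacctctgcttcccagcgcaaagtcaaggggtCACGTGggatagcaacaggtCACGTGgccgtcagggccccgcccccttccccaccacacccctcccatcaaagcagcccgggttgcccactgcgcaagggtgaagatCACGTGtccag
Ccnd3, chr17:47504801-47505050, plus strand: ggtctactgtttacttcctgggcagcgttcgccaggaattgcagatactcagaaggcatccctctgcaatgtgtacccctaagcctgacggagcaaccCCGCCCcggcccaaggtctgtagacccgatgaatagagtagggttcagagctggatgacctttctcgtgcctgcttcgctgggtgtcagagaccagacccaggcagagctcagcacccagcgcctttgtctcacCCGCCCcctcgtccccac

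The Cdk4 promoter held 4 E-boxes, the motif bound by MYC and other factors, starting 172, 118, 98 and 11 bases before the start. At least 4 were found in 8 of 32851 mouse promoter windows, or 0.0244%, and at least 1 in 7.15%. The Cdkn1b window held 3 CCAAT boxes, with the third past the start, as did 3.37% of windows, counting those with more. Ccne1 held 4 GC boxes, a count reached by 5.49% of windows, and Ccnd3 held 2, reached by 19.5%. A second Ccnd3 start, 88416 bases further into the gene, also had 2. GC boxes not marked here numbered 5 in the E2f1 window, 3 in the Cdk4 window and 1 in the Cdkn1b window. E2F-type letters (TTTCCCGC, TTTCGCGC, TTTGCCGC or TTTGGCGC, both strands) stood in 0 of the members' windows and in 2.26% of all windows, which says only that these letters are not there. Start sites of the E2f1 and Cdk6 windows lie 466 and 2408 bases inside the listed genes and are not printed, and Ccnd1, Ccnd2, Ccne2 and Rb1 are named only.

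Library totals lay between 15477324 and 17494776 counts, and 13915 genes, the 10 members among them, had enough counts to be tested. All 6 epithelial markers, Epcam and the keratins among them, were measured, whereas of the marker lists for macrophages, fibroblasts and endothelium 1 of 6, 2 of 6 and 1 of 5 genes passed the count filter, with Adgre1, Pdgfrb and Lum at 0. Summed epithelial markers were at 4412 to 5334 CPM in Au_TCPP, 2850 to 3185 CPM in Cu_TCPP and 2930 to 3188 CPM in Control. The macrophage list, which Cd68 (a lysosomal protein gene) makes up among genes tested, summed to 53.6 to 75.5 CPM in Au_TCPP, 9.75 to 13.9 CPM in Cu_TCPP and 25.7 to 29.5 CPM in Control, and the fibroblast list to 26.7 to 31.7 CPM in Au_TCPP, 16.3 to 19.7 CPM in Cu_TCPP and 35.2 to 40.6 CPM in Control. The endothelial list summed to 29.98 to 35.5 CPM in Au_TCPP, 35.3 to 37.4 CPM in Cu_TCPP and 41.4 to 46.0 CPM in Control. The part of these lists in the results was not tested. The Au_TCPP libraries stood apart in the mean length of the genes counted, 4549 to 4669 bases, against 5601 to 5754 bases in the other 6 libraries. Au_TCPP replicate 2 also had 2.37% mitochondrial counts, against 1.09% to 1.47% in the other libraries. Nothing in the labels says that replicates came from separate cultures, and the p-values therefore reflect only the spread between these samples, which may be technical. In bulk RNA, fewer cells of a state and less RNA per cell cannot be told apart. Levels are CPM (counts over the library total after scaling by TMM factors), log2 fold changes carry standard errors, and adjusted p-values are from edgeR's quasi-likelihood test over all genes tested, with calls at an adjusted p under 0.05.

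With Cu-TCPP(Fe)-PEG, 6 of the 10 members rose and 2 fell against Control, where 40.4% of all genes tested were called, 19.2% higher and 21.2% lower. All 5 cyclin genes and E2f1 were the ones that rose, and Cdkn1b and Rb1 fell. With Au/Cu-TCPP(Fe)-PEG, 4 members rose and 4 fell against Control, where 69.1% of all genes were called, 34.4% higher and 34.7% lower. Ccnd1, Cdk6, E2f1 and Rb1 fell and Ccnd2, Ccnd3, Ccne2 and Cdk4 rose, although Ccnd2 and Cdk4 turned to lower in Au_TCPP when library totals alone set the scale. Between the materials, 3 members were higher and 5 lower in Au_TCPP, where 65.9% of all genes were called, 34.6% higher and 31.3% lower. The median log2 fold change of the members was 0.44 for Cu_TCPP and -0.04 for Au_TCPP, each over Control, and -0.24 for Au_TCPP over Cu_TCPP, beside -0.01, -0.01 and 0.04 over all genes. The libraries of the groups did not overlap for 8 members in Cu_TCPP against Control (59.4% of all genes), 7 in Au_TCPP against Control (71.9%) and 8 in Au_TCPP against Cu_TCPP (67%). Both comparisons with Control share its libraries, so their values are given side by side only.

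**Figure D1:**
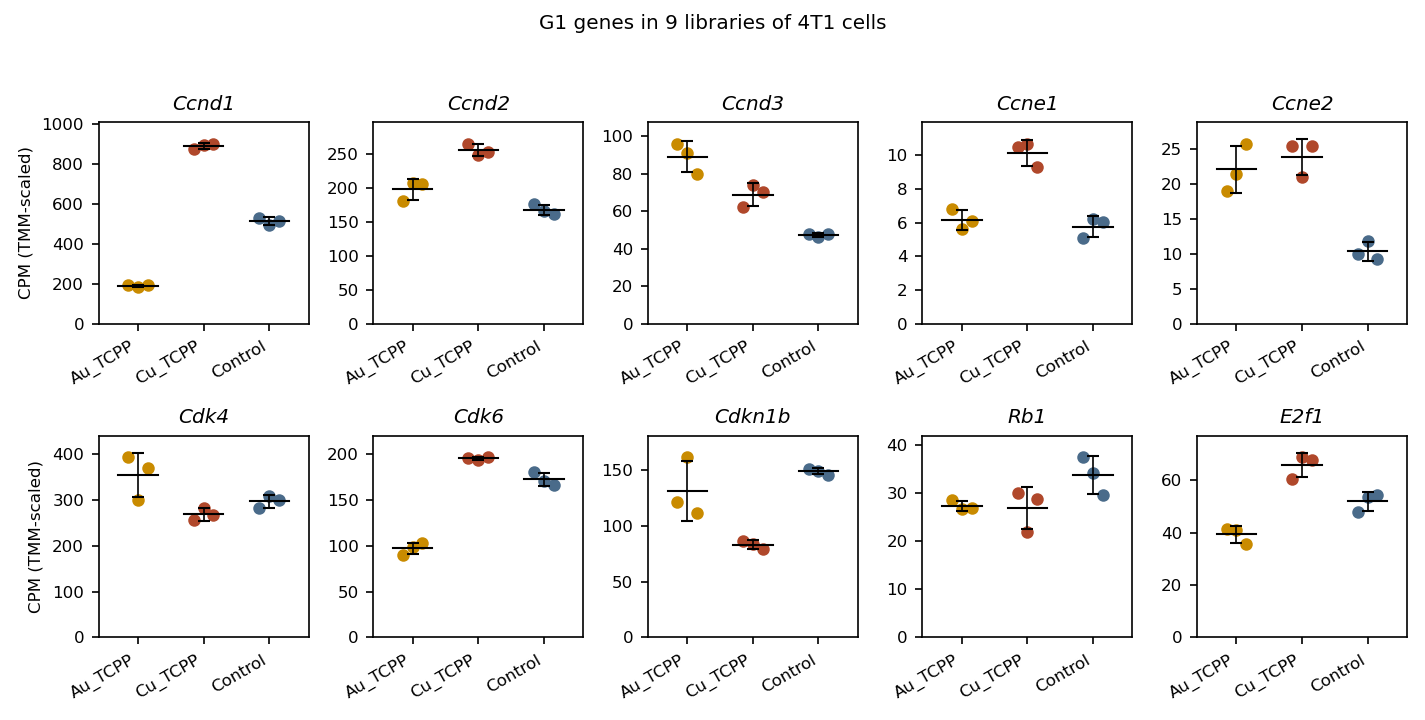
CPM of each of the 10 G1 genes (y axis, linear from 0, own scale per panel) in the libraries of Au_TCPP, Cu_TCPP and Control; points are libraries, long bars group means and whiskers SD (n = 3). Ccnd1 separates all 3 groups, at 190, 891 and 515 CPM, whereas Ccne1, Ccne2, Cdk4, Cdkn1b and Rb1 each overlap between some groups.

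Ccnd1, the gene of cyclin D1, moved in opposite directions with the materials. It lies on chromosome 7 from 144929931 to 144939925, minus strand (mm10). It had 193, 185 and 194 CPM in Au_TCPP, 874, 896 and 903 CPM in Cu_TCPP and 532, 495 and 517 CPM in Control. No library of a group came near those of another group. In Cu_TCPP, Ccnd1 was 1.73-fold higher than in Control (log2 0.79 ± 0.078, adjusted p = 4.13e-06). In Au_TCPP it was 2.70-fold lower than in Control (log2 -1.43 ± 0.079, adjusted p = 1.51e-09) and 4.68-fold lower than in Cu_TCPP (log2 -2.23 ± 0.081, adjusted p = 3.34e-11). All 3 calls held in each of 19 alternative settings, with log2 values of -1.86 to -1.28 for Au_TCPP against Control.

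Ccnd2 (chromosome 6, 127125162 to 127152193, minus strand), which encodes cyclin D2, was highest with the copper material. Its levels were 180, 207 and 205 CPM in Au_TCPP, 265, 248 and 253 CPM in Cu_TCPP and 176, 166 and 162 CPM in Control. Cu_TCPP stood above both other groups, while the lowest Au_TCPP library was just above the highest Control library. It rose 1.52-fold in Cu_TCPP over Control (log2 0.61 ± 0.085, adjusted p = 7.94e-05). In Au_TCPP the rise over Control was 1.18-fold (log2 0.24 ± 0.085, adjusted p = 0.0233). That call was lost in 6 alternatives, among them leaving out Au_TCPP replicate 3, Cu_TCPP replicate 1 or any Control replicate (log2 0.17 to 0.23), and the value was -0.18 with library totals alone and 0.63 with an offset for gene length. Against Cu_TCPP, Ccnd2 was 1.29-fold lower in Au_TCPP (log2 -0.37 ± 0.085, adjusted p = 0.00142), and at -0.07, no longer called, with the length offset.

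Ccnd3 (chromosome 17, 47505051 to 47599691, plus strand) encodes cyclin D3 and rose with both materials. It had 95.9, 90.9 and 80.0 CPM in Au_TCPP, 62.3, 74.1 and 69.9 CPM in Cu_TCPP and 47.8, 46.3 and 47.7 CPM in Control. The groups did not overlap, and Control varied least. The rise was 1.88-fold in Au_TCPP (log2 0.91 ± 0.091, adjusted p = 5.42e-07) and 1.45-fold in Cu_TCPP (log2 0.54 ± 0.091, adjusted p = 0.000349), each over Control. Au_TCPP was 1.29-fold above Cu_TCPP (log2 0.37 ± 0.090, adjusted p = 0.00213), a difference of 0.00 when library totals alone set the scale.

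Set side by side per length, in deposited FPKM (counts per gene length and library size), the D-type cyclins summed to 69.9 ± 0.742 in Au_TCPP, 226 ± 3.07 in Cu_TCPP and 130.1 ± 4.22 in Control (SD, n = 3 each). Deposited FPKM carry a factor per library, at 1.09 to 1.24 in Au_TCPP, 0.925 to 0.944 in Cu_TCPP and 0.875 to 0.889 in Control. Sums set against each other between groups depend on that factor. Cyclin D1 supplied 56.5% ± 1.56 of the D-type cyclin sum in Au_TCPP, 84.4% ± 0.304 in Cu_TCPP and 82.5% ± 0.394 in Control. Ccnd2 made up 29.3% ± 2.101 in Au_TCPP, 12.1% ± 0.551 in Cu_TCPP and 13.5% ± 0.409 in Control. The Ccnd3 share was 14.2% ± 1.40 in Au_TCPP, against 3.49% ± 0.269 in Cu_TCPP and 4.07% ± 0.0815 in Control. Shares within a library do not depend on how libraries are scaled to each other, but they carry no offset for gene length, with which Ccnd1, Ccnd2 and Ccnd3 were at -1.28, 0.63 and 1.29 in Au_TCPP against Control. These shares use the same counts as the fold changes and were not tested.

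**Figure D2:**
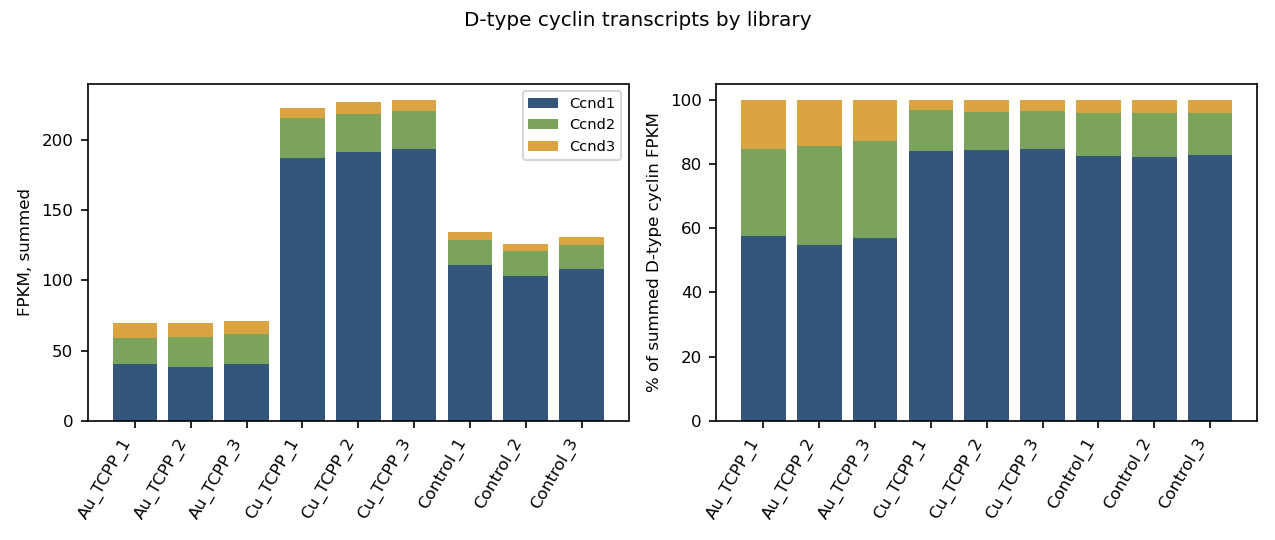
D-type cyclin transcripts in each of the 9 libraries, as summed FPKM (left, y axis from 0) and as percent of that sum (right), with Ccnd1, Ccnd2 and Ccnd3 stacked. The Au_TCPP sums lie between 69.3 and 70.7 FPKM, with Ccnd1 at 54.7% to 57.7% of them, against 82.1% to 84.6% in the other libraries.

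Related members differ along their coding sequences. Identity was 71.3% between Ccnd1 and Ccnd2, 66.7% between Ccnd1 and Ccnd3, 68.9% between Ccnd2 and Ccnd3, 62.3% between Ccne1 and Ccne2 and 68.7% between Cdk4 and Cdk6. The longest identical stretch in their transcripts ran from 15 to 20 bases. Genes on the opposite strand share exonic bases with some members, and if counting ignored strand, which the sources used here do not state, such reads cannot be told apart. Oraov1 overlaps 23.4% of the exonic bases of Ccnd1, Tspan31 19.7% of Cdk4, Ints8 17.4% of Ccne2 and Bysl 4.11% of Ccnd3 (GENCODE M21). Rcbtb2 and Lpar6 overlap 8.11% and 6.78% of Rb1, and no such gene was found for Ccne1, Cdkn1b and E2f1. Oraov1 was at 10.8 CPM in Au_TCPP, 9.66 CPM in Cu_TCPP and 7.91 CPM in Control, and Bysl was at 28.4 CPM in Au_TCPP, 48.5 CPM in Cu_TCPP and 18.5 CPM in Control, and the part of these genes in the members' values was not tested.

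Ccne1 (chromosome 7, 38097984 to 38107534, minus strand), one of the 2 genes for cyclin E and a textbook E2F target, rose with the copper material. Its levels were low, at 6.80, 5.61 and 6.08 CPM in Au_TCPP, 10.5, 10.7 and 9.26 CPM in Cu_TCPP and 5.06, 6.20 and 6.03 CPM in Control. Every Cu_TCPP library exceeded all others, and Au_TCPP overlapped Control. Ccne1 rose 1.76-fold in Cu_TCPP over Control (log2 0.81 ± 0.151, adjusted p = 0.000684) and was 1.65-fold lower in Au_TCPP than in Cu_TCPP (log2 -0.72 ± 0.154, adjusted p = 0.000821). Against Control the Au_TCPP value was log2 0.09 ± 0.160 (adjusted p = 0.612), and its sign turned in 3 of 19 alternatives.

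Ccne2 (chromosome 4, 11191351 to 11204779, plus strand), the other cyclin E gene, rose with both materials. It had 19.1, 21.5 and 25.8 CPM in Au_TCPP, 25.4, 20.97 and 25.4 CPM in Cu_TCPP and 10.0, 11.9 and 9.27 CPM in Control. Every treated library lay above every Control library, while the treated groups overlapped each other. The rise was 2.12-fold in Au_TCPP (log2 1.09 ± 0.143, adjusted p = 8.73e-06) and 2.30-fold in Cu_TCPP (log2 1.20 ± 0.141, adjusted p = 1.79e-05), each over Control. Between the materials the difference was log2 -0.11 ± 0.136 (adjusted p = 0.474), or -0.49, past the threshold, with library totals alone. Ints8, which overlaps Ccne2, was at 102 CPM in Au_TCPP, 72.9 CPM in Cu_TCPP and 50.1 CPM in Control, and its part in the Ccne2 values was not tested. Per length, Ccne2 supplied 73.0% ± 4.34 of the E-type cyclin FPKM in Au_TCPP, 64.1% ± 3.89 in Cu_TCPP and 57.8% ± 3.39 in Control.

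Cdk6 (chromosome 5, 3341485 to 3531008, plus strand), one of the kinases that cyclin D activates, fell with Au/Cu-TCPP(Fe)-PEG. It had 90.1, 98.9 and 103 CPM in Au_TCPP, 197, 193 and 197 CPM in Cu_TCPP and 181, 171 and 166 CPM in Control. All Au_TCPP libraries were far below the rest, and Cu_TCPP lay just above Control without overlap. In Au_TCPP it was 1.78-fold lower than in Control (log2 -0.83 ± 0.081, adjusted p = 4.22e-07) and 2.01-fold lower than in Cu_TCPP (log2 -1.01 ± 0.081, adjusted p = 6.30e-08). Cdk6 has the longest counted length of the members, 13989 bases, and with the offset for gene length these values were -0.30 and -0.57, both still called. For Cu_TCPP against Control the value was log2 0.18 ± 0.080 (adjusted p = 0.0864), which passed the threshold in 8 of 19 alternatives, the DESeq2 test among them. The authors' deposited table gives an adjusted p of 0.00291 for that comparison.

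Cdk4 (chromosome 10, 127063534 to 127067920, plus strand), the other cyclin D kinase, was uneven among the Au_TCPP libraries. Its levels were 393, 300 and 369 CPM in Au_TCPP, 256, 283 and 266 CPM in Cu_TCPP and 281, 309 and 299 CPM in Control. Replicate 2 of Au_TCPP, the library with the most mitochondrial counts, fell within the Control range. Cdk4 passed the threshold in Au_TCPP over Control (1.19-fold, log2 0.26 ± 0.102, adjusted p = 0.0362). That call was lost in 15 of 19 alternatives, including leaving out any library other than Au_TCPP replicate 2, and the sign turned (-0.17) with library totals alone. The authors' deposited table gives it an adjusted p of 0.0932. Relative to Cu_TCPP, Au_TCPP was 1.32-fold higher (log2 0.40 ± 0.102, adjusted p = 0.00298), but 0.02 with library totals alone. Cu_TCPP against Control gave log2 -0.14 ± 0.101 (adjusted p = 0.278). Tspan31, which overlaps Cdk4 on the other strand, was at 107 CPM in Au_TCPP, 50.2 CPM in Cu_TCPP and 58.0 CPM in Control, and its part in the Cdk4 values was not tested.

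Per length, Cdk6 made up 6.08% ± 1.03 of the summed Cdk4 and Cdk6 FPKM in Au_TCPP, 14.5% ± 0.724 in Cu_TCPP and 11.9% ± 0.890 in Control. Cdk4 was the more abundant kinase transcript in all 9 libraries. With the offset for gene length, Cdk6 was at -0.30 and Cdk4 at 0.25 in Au_TCPP against Control, closer together than the -0.83 and 0.26 without it, and the share carries no such offset.

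Cdkn1b (chromosome 6, 134920401 to 134925513, plus strand), the gene of the inhibitor p27, fell with the copper material. It had 121, 161 and 111 CPM in Au_TCPP, 86.7, 83.5 and 79.2 CPM in Cu_TCPP and 151, 149 and 146 CPM in Control. Cu_TCPP lay below every other library, and Au_TCPP replicate 2 lay above all of Control while its companions lay below. In Cu_TCPP the level was 1.79-fold lower than in Control (log2 -0.84 ± 0.115, adjusted p = 6.49e-05), a call kept in all 19 alternatives. In Au_TCPP it differed from Control by log2 -0.18 ± 0.114 (adjusted p = 0.173), and passed it at -0.38 without Au_TCPP replicate 2 and at -0.59 with library totals alone (adjusted p from 0.000107 to 0.756 over the alternatives). Au_TCPP was 1.58-fold above Cu_TCPP (log2 0.66 ± 0.115, adjusted p = 0.000143), a value of 0.45 without Au_TCPP replicate 2 and 0.30, no longer called, with library totals alone.

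Inhibitor and D-type cyclin transcripts can be set against each other within a library. The ratio of Cdkn1b to summed D-type cyclin FPKM was 0.375, 0.495 and 0.339 in Au_TCPP, 0.0862, 0.0815 and 0.0769 in Cu_TCPP and 0.242, 0.256 and 0.242 in Control. The ratio was thus highest in the Au_TCPP libraries and lowest in the Cu_TCPP libraries, without overlap. It is a description of RNA that draws on the same counts and says nothing of protein.

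Rb1 (chromosome 14, 73183673 to 73325822, minus strand), the gene of the retinoblastoma protein, was the least settled member. Its levels were 28.5, 26.65 and 26.99 CPM in Au_TCPP, 29.998, 21.98 and 28.8 CPM in Cu_TCPP and 37.5, 34.3 and 29.7 CPM in Control. The Cu_TCPP and Control libraries overlapped, and the highest Au_TCPP library was close to the lowest Control library. Rb1 passed the threshold in Cu_TCPP against Control (log2 -0.33 ± 0.122, adjusted p = 0.0434), a call lost in 11 of 19 alternatives, with adjusted p from 0.0194 to 0.208, the highest without Cu_TCPP replicate 2. It passed in Au_TCPP against Control (log2 -0.30 ± 0.124, adjusted p = 0.0402), a call lost in 6 alternatives, with -0.06 under the length offset. The materials differed by log2 0.03 ± 0.125 (adjusted p = 0.869), with a sign that turned in 12 alternatives.

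E2f1 (chromosome 2, 154559407 to 154569892, minus strand), which encodes a factor that activates S phase genes, moved in opposite directions with the materials. It had 41.5, 41.1 and 35.5 CPM in Au_TCPP, 60.5, 68.7 and 67.7 CPM in Cu_TCPP and 47.8, 53.6 and 54.3 CPM in Control. The groups did not overlap. E2f1 rose 1.27-fold in Cu_TCPP over Control (log2 0.34 ± 0.092, adjusted p = 0.00904) and fell 1.32-fold in Au_TCPP against Control (log2 -0.40 ± 0.094, adjusted p = 0.00169). Au_TCPP was 1.67-fold below Cu_TCPP (log2 -0.74 ± 0.094, adjusted p = 7.07e-06). Those calls held in all 19 alternatives, but in Cu_TCPP against Control narrowly, with adjusted p up to 0.0497 on leaving out a library.

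**Figure D3:**
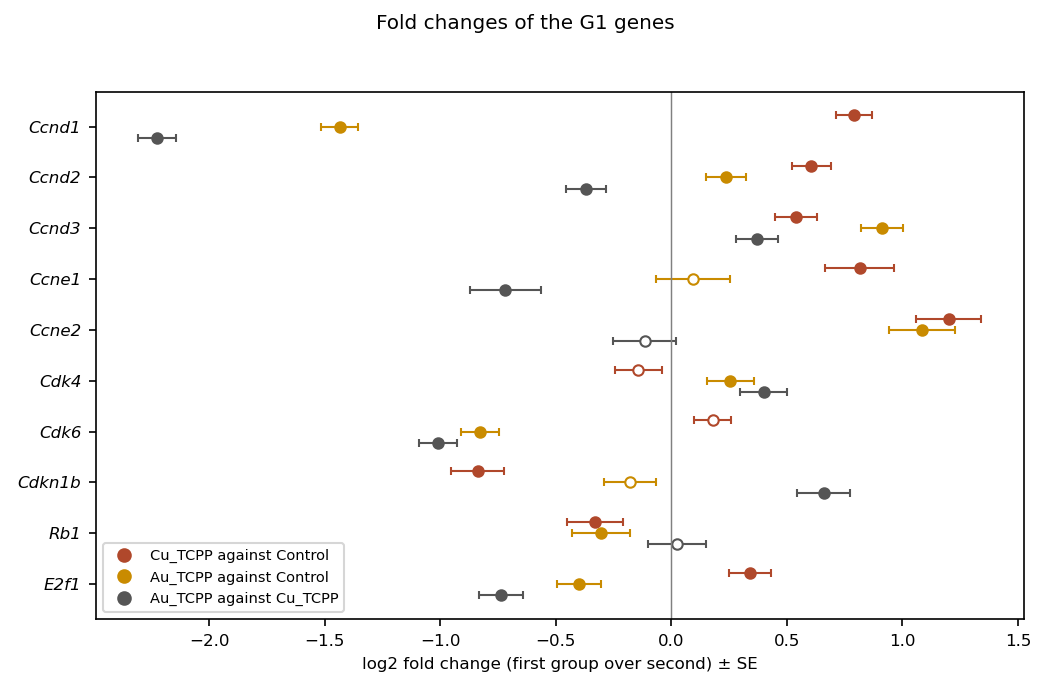
Log2 fold changes (x axis, first group over second, ± SE) of the 10 G1 genes in the 3 comparisons; filled points have an adjusted p under 0.05 in edgeR's quasi-likelihood test. Ccnd1 and E2f1 lie to the right of 0 for Cu_TCPP against Control (0.79 and 0.34) and to the left for Au_TCPP against Control (-1.43 and -0.40), while Ccnd3 and Ccne2 lie to the right in both.

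The scale chosen for the libraries bears on the comparisons with Au_TCPP. Using library totals alone in place of TMM factors shifted the median of all genes to -0.43 when Au_TCPP was set against Control and to -0.33 against Cu_TCPP. On that scale 2 members were higher and 5 lower in Au_TCPP than in Control, where 18.9% of all genes were higher and 51.0% lower. Against Cu_TCPP, 7 members were lower and the others did not pass, where 20.3% of all genes were higher and 46.9% lower. Ccnd3 and Ccne2 remained higher than in Control, at 0.49 and 0.66, and Ccnd1, Cdk6, Rb1 and E2f1 remained lower, at -1.86, -1.25, -0.73 and -0.82, joined by Cdkn1b at -0.59. All of the members together held 0.0916% to 0.101% of the counts in Au_TCPP libraries, against up to 0.205% in Cu_TCPP and 0.159% to 0.164% in Control.

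**Figure D4:**
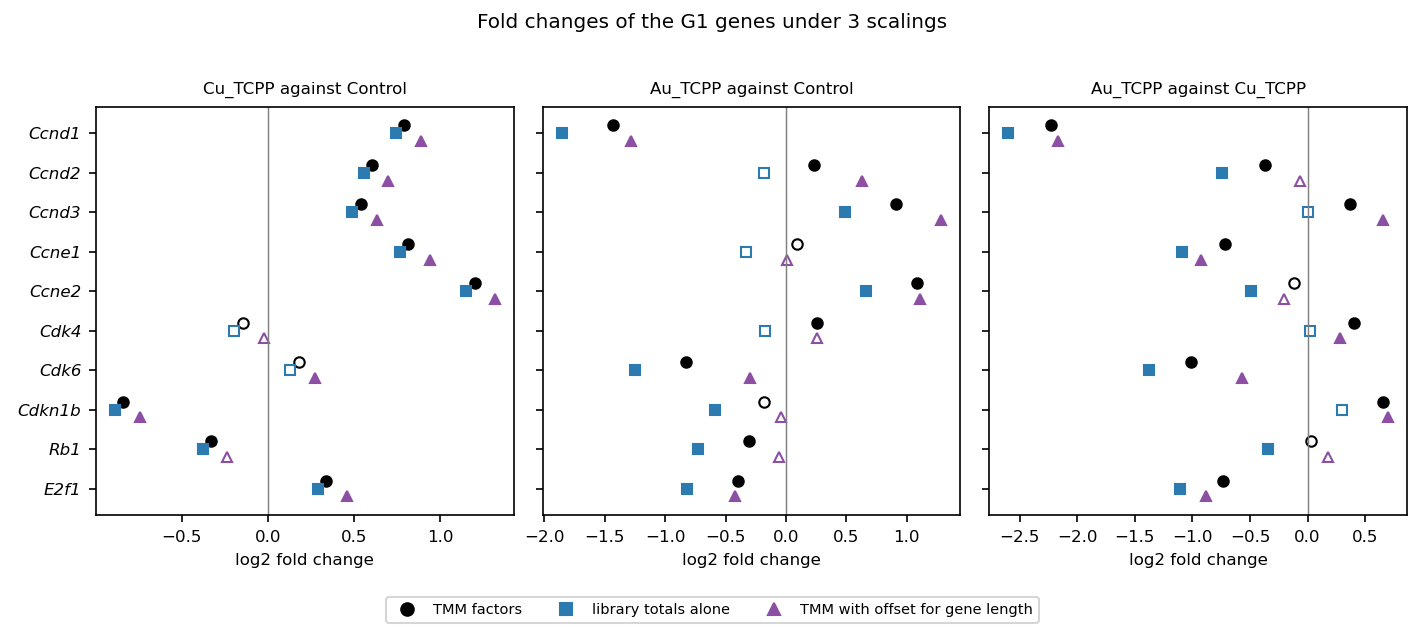
Log2 fold changes (x axis) of the 10 G1 genes in the 3 comparisons with TMM factors, library totals alone, or TMM factors with an offset for gene length; filled symbols have an adjusted p under 0.05. Library totals move the Au_TCPP values to the left, turning Ccnd2 (-0.18), Ccne1 (-0.33) and Cdk4 (-0.17) to lower than Control, while the length offset moves Cdk6 (-0.30) and Ccnd2 (0.63) to the right.

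By FPKM, which sets genes side by side per length, Ccnd1 was the most abundant member in Cu_TCPP and Control and Cdk4 in Au_TCPP. In Au_TCPP the order ran from Cdk4 (106 ± 15.2) through Ccnd1 (39.5 ± 1.34), Cdkn1b (28.1 ± 5.49), Ccnd2 (20.5 ± 1.53), E2f1 (12.2 ± 0.993) and Ccnd3 (9.90 ± 0.892) to Cdk6 (6.79 ± 0.447), Ccne2 (6.18 ± 0.970), Rb1 (4.45 ± 0.183) and Ccne1 (2.26 ± 0.232). Among neighbours in that order, Cdk6 and Ccne2 overlapped. In Cu_TCPP the order was Ccnd1 (190 ± 3.26), Cdk4 (83.1 ± 4.14), Ccnd2 (27.3 ± 0.910), E2f1 (20.9 ± 1.44), Cdkn1b (18.4 ± 0.814), Cdk6 (14.1 ± 0.150), Ccnd3 (7.88 ± 0.686), Ccne2 (6.89 ± 0.742), Rb1 (4.50 ± 0.725) and Ccne1 (3.83 ± 0.286). There Ccnd3 overlapped Ccne2, and Rb1 overlapped Ccne1. In Control it was Ccnd1 (107 ± 3.72), Cdk4 (89.6 ± 4.46), Cdkn1b (32.1 ± 0.408), Ccnd2 (17.5 ± 0.679), E2f1 (16.2 ± 1.18), Cdk6 (12.1 ± 0.449), Rb1 (5.52 ± 0.612), Ccnd3 (5.29 ± 0.0973), Ccne2 (2.92 ± 0.380) and Ccne1 (2.13 ± 0.235), each SD with n = 3. Ccnd2 overlapped E2f1 in Control, and Rb1 overlapped Ccnd3.

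Other CDK inhibitor genes changed in both directions. Cdkn1a, which encodes the p53-inducible inhibitor p21, had 378, 243 and 397 CPM in Au_TCPP, 29.2, 36.9 and 31.5 CPM in Cu_TCPP and 18.8, 18.6 and 17.1 CPM in Control. The groups were far apart, and Au_TCPP replicate 2 was the lowest of its group. The rise over Control was 18.7-fold in Au_TCPP (log2 4.22, adjusted p = 3.0e-10) and 1.79-fold in Cu_TCPP (log2 0.84, adjusted p = 0.0013). Cdkn2c, the gene of the INK4-type inhibitor p18, fell by 0.72 in Au_TCPP and by 0.33 in Cu_TCPP on the log2 scale. Its adjusted p in Cu_TCPP was 0.0234, and up to 0.126 on leaving out a library. Cdkn2d (p19) fell by 0.64 in Au_TCPP and by 0.38 in Cu_TCPP, and Cdkn3, which encodes a CDK-associated phosphatase, was at 0.08, not called, in Au_TCPP and rose by 0.39 in Cu_TCPP. Of 7 such inhibitor genes, 4 were tested. Against Control, 1 was higher and 2 lower in Au_TCPP, and 2 were higher and 2 lower in Cu_TCPP. Of all genes tested, 34.4% were higher and 34.7% lower in Au_TCPP, and 19.2% and 21.2% in Cu_TCPP. With the length offset 2 inhibitor genes were higher in Cu_TCPP, with the calls of Cdkn2c and Cdkn2d lost, beside 27.5% higher and 16.7% lower of all genes. With library totals alone the inhibitor counts in Au_TCPP were 1 higher and 3 lower, beside 18.9% and 51.0% of all genes. Cdkn2a, Cdkn2b and Cdkn1c had 0 counts in all 9 libraries, which allows at most 3 counts, or 0.159 to 0.237 CPM, per library. These limits cover counting error only.

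Kinases and assembly factors that work with the G1 cyclins changed in both directions. Of 9 tested, 5 were higher and 2 lower in Au_TCPP against Control (median 0.43), beside 34.4% and 34.7% of all genes. In Cu_TCPP against Control 2 were higher and the others did not pass (median 0.20), beside 19.2% and 21.2%. With library totals alone, the counts were 1 higher and 4 lower in Au_TCPP, beside 18.9% and 51.0% of all genes. In Cu_TCPP they were 2 higher and 1 lower, beside 16.3% and 23.0%. With the length offset 5 were higher in Cu_TCPP, where 27.5% of all genes were higher. Cdc25a, the phosphatase that activates Cdk2, rose with both materials (log2 0.43 in Au_TCPP and 0.85 in Cu_TCPP), as did Cdk2 itself (0.45 in Au_TCPP and 0.31 in Cu_TCPP). The Cdk2 call in Cu_TCPP (adjusted p = 0.0417) could be lost on leaving out a library, with adjusted p up to 0.117. In Au_TCPP Mnat1, part of the CDK-activating kinase, rose by 1.05, whereas Wee1, which encodes an inhibitory kinase, was at -1.30 and Ccna2, the gene of cyclin A2, at -0.95, both called. These 3 genes did not pass in Cu_TCPP. Cdc37, a chaperone partner of Cdk4, was at 0.19 in Au_TCPP and -0.27 in Cu_TCPP, and neither passed.

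Relatives of Rb1 and E2f1 mostly fell in Au_TCPP. Of 11 pocket protein, E2F and DP genes, 2 were higher and 7 lower in Au_TCPP against Control (median -0.53), beside 34.4% and 34.7% of all genes. In Cu_TCPP against Control 6 were higher and 1 lower (median 0.34), beside 19.2% and 21.2%. With library totals alone 9 were lower in Au_TCPP and the others did not pass, where 18.9% of all genes were higher and 51.0% lower. E2f7, which encodes a repressor of E2F targets, had 26.7 ± 1.30 CPM in Au_TCPP, 79.6 ± 3.40 CPM in Cu_TCPP and 48.0 ± 3.46 CPM in Control (SD, n = 3 each). E2f4 had 52.3 ± 5.11 CPM in Au_TCPP, 145 ± 13.3 CPM in Cu_TCPP and 75.3 ± 3.56 CPM in Control. Both genes were called in all 3 comparisons. Tfdp2, the gene of a DP partner of E2F, was lower with both materials, at log2 -1.0004 in Au_TCPP and -1.13 in Cu_TCPP. Rbl2, which encodes the pocket protein p130, fell by 1.61 in Au_TCPP and was at -0.33, not called, in Cu_TCPP. Rbl1, the gene of p107, was at -0.72 in Au_TCPP and 0.25 in Cu_TCPP, both called against Control.

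Among E2F target genes of S phase entry, 17 of 30 rose and 1 fell in Cu_TCPP against Control (median 0.33). Of all genes, 19.2% rose and 21.2% fell there. In Au_TCPP 10 targets rose and 15 fell against Control (median -0.32), where 34.4% of all genes rose and 34.7% fell. In Au_TCPP against Cu_TCPP, 4 targets were higher and 19 lower (median -0.56), beside 34.6% and 31.3% of all genes. With the length offset the targets in Au_TCPP against Control became 12 higher and 9 lower, beside 35.7% and 30.4% of all genes. With library totals alone they became 5 higher and 19 lower, beside 18.9% and 51.0%. Against Cu_TCPP the targets were 6 and 19 with the length offset, beside 32.4% and 31.4% of all genes. They were 2 and 22 with library totals alone, beside 20.3% and 46.9%. Cdc6 and Orc1, which load the replicative helicase, were at 0.13 (not called) and 0.41 (called) in Au_TCPP and rose by 0.75 each in Cu_TCPP. Mybl2, the gene of B-MYB, was at -0.33 in Au_TCPP and 0.64 in Cu_TCPP, both called. In Au_TCPP against Control, Pole (a replicative polymerase) and Mcm7 (a helicase subunit) fell by 1.79 and 1.49, while Pcna, the sliding clamp, rose by 1.40 in Au_TCPP and by 0.44 in Cu_TCPP. Chaf1a, a histone chaperone subunit gene, was at -1.63 in Au_TCPP against Cu_TCPP. Of the mitotic list, 12 of 14 genes fell and the others did not pass in Au_TCPP against Control (median -1.002). In Cu_TCPP 2 had risen and 2 fallen (median 0.13). The shares of all genes are those given for the E2F targets. With the length offset the mitotic counts were 1 risen and 12 fallen in Au_TCPP, beside 35.7% and 30.4% of all genes. In Cu_TCPP they were 7 risen and 1 fallen, beside 27.5% and 16.7%. Among the mitotic genes, Plk1, a mitotic kinase gene, was at -2.12, Ccnf at -1.71 and Ccnb1, the gene of cyclin B1, at -1.55 in Au_TCPP. The proliferation marker Mki67 was at -1.48 in Au_TCPP and 0.49 in Cu_TCPP, and Cdc25c was lower with both materials, at -0.85 in Au_TCPP and -0.43 in Cu_TCPP, each against Control.

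**Figure D5:**
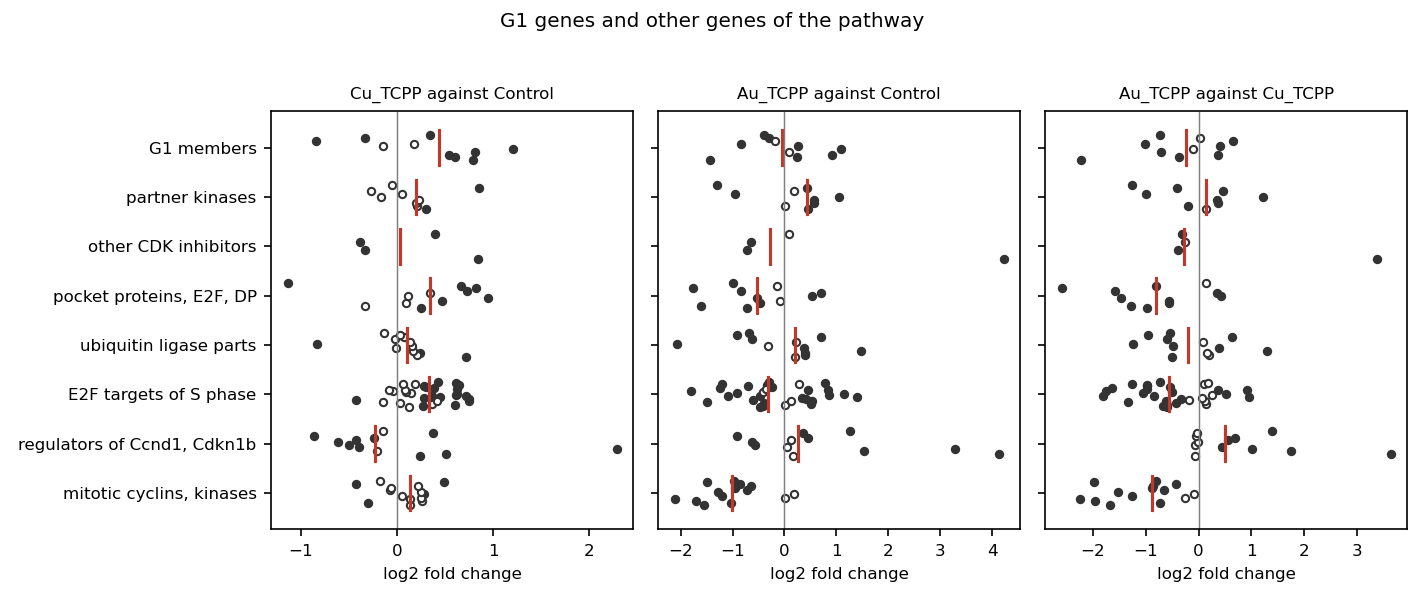
Log2 fold changes (x axis) of the G1 members and of 7 other gene lists in the 3 comparisons; each point is a gene, filled where called, and red bars are list medians. Mitotic genes lie to the left in Au_TCPP against Control (median -1.002) and around 0 in Cu_TCPP against Control (median 0.13).

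Parts of the ubiquitin ligases that degrade G1 cyclins and p27 went both ways. Of 12 genes, 5 were higher and 4 lower in Au_TCPP (median 0.21), and 2 higher and 1 lower in Cu_TCPP (median 0.11), each against Control. Of all genes tested, 34.4% were higher and 34.7% lower in Au_TCPP, and 19.2% and 21.2% in Cu_TCPP. With library totals alone the ligase counts were 2 higher and 5 lower in Au_TCPP (median -0.22) and 1 higher and 2 lower in Cu_TCPP. Of all genes, 18.9% were then higher and 51.0% lower in Au_TCPP, and 16.3% and 23.0% in Cu_TCPP. Skp2, which encodes the receptor for p27, had 63.8 ± 14.2 CPM in Au_TCPP, 90.8 ± 4.81 CPM in Cu_TCPP and 55.4 ± 2.02 CPM in Control (SD, n = 3 each). It rose in Cu_TCPP over Control (log2 0.71, adjusted p = 0.00046). Cul1, the scaffold of that ligase, rose with both materials, by 0.40 in Au_TCPP and 0.24 in Cu_TCPP over Control. The Cul1 call in Cu_TCPP was near the threshold (adjusted p = 0.0454, and up to 0.158 on leaving out a library). Fbxo31, whose product is a receptor for cyclin D1, was lower with both materials, at log2 -2.07 in Au_TCPP and -0.83 in Cu_TCPP against Control. Skp1a, an adaptor gene of these ligases, rose by 1.47 in Au_TCPP, and Cul4a was at -0.68, while neither was called in Cu_TCPP (0.17 and -0.14). Fzr1, an activator gene of the anaphase-promoting complex, was at -0.96 in Au_TCPP against Cu_TCPP.

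Among factors known to act on Ccnd1 or Cdkn1b transcription, Jun and Fosl1, whose products are AP-1 subunits, rose with both materials. They were at log2 4.14 and 3.29 in Au_TCPP and at 0.50 and 2.28 in Cu_TCPP, each against Control. Ets1 was at 180 CPM in Au_TCPP, 184 CPM in Cu_TCPP and 142 CPM in Control. Foxo4, of a family that activates Cdkn1b, was lower with both materials, at -0.91 in Au_TCPP and -0.87 in Cu_TCPP against Control. Its relatives Foxo1 and Foxo3 were at 32.0 and 60.5 CPM in Au_TCPP, 21.7 and 37.4 CPM in Cu_TCPP and 29.2 and 44.2 CPM in Control. Stat3 was lower with both materials, at -0.63 in Au_TCPP and -0.61 in Cu_TCPP, each against Control. Ets2 and Junb rose by 1.25 and 1.54 in Au_TCPP against Control and were at -0.14 and -0.21, not called, in Cu_TCPP. Ctnnb1 and Tcf7l2 were at 920 and 9.71 CPM in Au_TCPP, 679 and 10.2 CPM in Cu_TCPP and 891 and 14.4 CPM in Control. Of these 12 regulators, 6 were higher and 3 lower in Au_TCPP against Control (median 0.26), beside 34.4% and 34.7% of all genes. In Cu_TCPP against Control 4 were higher and 6 lower (median -0.22), beside 19.2% and 21.2%. With library totals alone 4 were higher and 6 lower in Au_TCPP (median -0.16), beside 18.9% and 51.0% of all genes. With the length offset 8 were higher and 2 lower in Au_TCPP, beside 35.7% and 30.4%. Myc, named after its values were seen because the E-box of the Cdk4 promoter is its motif, had 289 ± 11.0 CPM in Au_TCPP, 302 ± 7.40 CPM in Cu_TCPP and 256 ± 5.11 CPM in Control.

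The gene whose pattern over the 9 libraries lay nearest to each member was found by the root mean square difference of centred log2 CPM among 11341 genes with usable symbols. The smallest differences were those of Lpgat1 from Ccnd2 (0.038), Myo5a from Cdk6 (0.042), Rtn3 from Cdk4 (0.053), Dpy30 from Ccnd3 (0.058) and Fbln2 from E2f1 (0.068). Pom121 lay nearest to Ccnd1 (0.084), Acadsb to Cdkn1b (0.085), Tmtc4 to Rb1 (0.082), Polr3g to Ccne2 (0.154) and Cdc6 to Ccne1 (0.091). The members' own spread on that measure ran from 0.19 for Cdk4 to 0.92 for Ccnd1, and the differences are not scaled by it. In 1 of the 10 cases, Cdc6 for Ccne1, the nearest gene was also among the 30 listed E2F targets, out of 11341 genes compared.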

How the data were processed

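RNA of 9 libraries was grouped by title. The submitters' processing notes list mm10, Bowtie 0.12.9, Cufflinks 2.1.1 and HTSeq, without strand use. Read counts per gene are in the deposited table as raw numbers, per the file headers. It also gives deposited FPKM, which equal count per length and library total times a factor of 0.875 to 1.238 per library. That factor was highest in the Au_TCPP libraries (1.092 to 1.238). The authors also deposited group means (not used), log2 fold changes and p-value columns, per the file headers, whose test the sources used here do not give.

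edgeR 4.0.16 (R 4.3.3) was run on the counts with TMM factors and filterByExpr, and its robust quasi-likelihood model held 1 mean for each group over the 9 libraries. Adjustment was by Benjamini-Hochberg over 13915 genes. Standard errors are the absolute log2 fold change over the square root of F. The common dispersion was 0.0112, a coefficient of variation of 10.6%. Alternatives were RLE factors, library totals, no filter, 1 CPM in 3 libraries, DESeq2 1.42.0, 6 libraries, a replicate block, limma 3.58.1 on log2 FPKM with pseudocounts of 1 and 0.1, an offset for gene length (spline, 5 degrees of freedom) and leaving out each library.

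The members and lists were chosen with earlier results of these data known. Besides the members, the rule named the 3 genes of each list with the smallest p per comparison, Cdkn1a, and the gene nearest to each member. Examples were picked from these, and Foxo1, Foxo3, Ets1, Myc, Ctnnb1 and Tcf7l2 were named outside the rule. Overlaps and identities used GENCODE M21, in which the members have the coordinates of the table; promoters came from RefSeq, with windows for 6 of 10 members. Sequences were handled in Python 3.11.15.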

Additional observations from a re-analysis of the deposited data

How the results depend on the processing

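Of 570 values of members under alternatives, 499 kept their direction and side of the threshold, 42 lost and 12 gained the call, and 17 turned in sign; of 1197 for the other named genes these were 1161, 32, 4 and 0. The number of members lower in Cu_TCPP than in Control was 1 with RLE factors, DESeq2, limma with either pseudocount and the length offset, Rb1 being the member lost. In those settings 16.7% to 19.7% of all genes were lower. Members higher in Au_TCPP than in Control numbered 2 with library totals or no filter, and members higher in Au_TCPP than in Cu_TCPP numbered 0 with library totals. With library totals 2626 and 2830 of all genes were higher and 7098 and 6526 lower in these comparisons. Without a filter 17.4% of all genes were higher in Au_TCPP than in Control. Library totals turned Ccnd2 (-0.18), Ccne1 (-0.33) and Cdk4 (-0.17) for Au_TCPP against Control and Rb1 (-0.35) for Au_TCPP against Cu_TCPP. Rb1 also turned to -0.0500 without a filter, -0.0035 with 1 CPM in 3 libraries, -0.026 in 6 libraries and -0.0069 and -0.0061 with limma. Leaving out 1 library gave 6 to 7 members higher and 1 to 2 lower in Cu_TCPP against Control, 2 to 4 and 3 to 5 in Au_TCPP against Control, and 3 and 5 each time in Au_TCPP against Cu_TCPP. All genes higher and lower then numbered 2024 to 3627 and 2202 to 3552, 4225 to 4856 and 4616 to 5253, and 4319 to 4783 and 4100 to 4839 in these comparisons. Ccne1 in Au_TCPP against Control then ranged from -0.0298 to 0.134 and Rb1 in Au_TCPP against Cu_TCPP from -0.149 to 0.0696. All genes called in Cu_TCPP against Control numbered 5617, with 4226 (without Control replicate 2) to 7179 (without Au_TCPP replicate 2) on leaving out a library and 7381 in 6 libraries.

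Same-numbered libraries did not deviate together (correlations -0.083 to 0.076, and 1 of 9 libraries correlated best with its own number in both other groups). The replicate block gave 6 members higher and 2 lower in Cu_TCPP against Control, beside 18.8% and 20.7% of all genes. It gave 3 and 4 in Au_TCPP against Control, beside 33.9% and 34.4%, and 3 and 5 in Au_TCPP against Cu_TCPP, beside 33.9% and 31.2%. Cdk4 lost its call in Au_TCPP against Control. Ccne1 had the fewest counts of the members.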
